A study of Mus musculus with 4 samples.

Results

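The 9 genes Pck1, Pcx, Fbp1, Pklr, Slc2a2, Gys2, Pygl, Ppp1r3b and Ppp1r3c of hepatic glucose and glycogen metabolism were described in the liver of Clock mutant mice. Pck1, Pcx and Fbp1 serve gluconeogenesis, Pklr glycolysis, Slc2a2 glucose transport, and the other four glycogen turnover. They were chosen by name for their place in these pathways. For each gene the RefSeq transcript with the highest mean level relative to its length was used. They are 9 of 24353 genes to which deposited transcripts could be assigned, and all 9 were among the 9125 genes that averaged 100 reads or more. Liver RNA was sequenced every 6 h, at circadian times CT22, CT28, CT34 and CT40, with 1 library each. Every library came from C57/BL6 mice that carried the Clock-delta-19 mutation together with the transgenes tetO::Clock-HA and Scg2:tTA, and all of them had drunk doxycycline at 30 ug/ml from 3 days before constant darkness onwards. Clock-delta-19 encodes a dominant-negative form of the clock transcription factor CLOCK. The tTA activator stands under the promoter of Scg2, a gene of neurons and endocrine cells, and doxycycline keeps tTA from switching on the tetO-driven Clock copy. The mice had lived in 12 h of light and 12 h of darkness before the shift, and sampling started one day after it. Equal amounts of RNA from 3 animals were pooled for each library, so variation between animals cannot be seen, and age and sex are not given in the labels used here. Wild-type mice were not analysed here, so each comparison below is between times within the mutant.

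The liver keeps blood glucose steady by storing it as glycogen after meals and by releasing it between meals. Glycogen synthase and glycogen phosphorylase build and break the polymer, and protein phosphatase 1, brought to the glycogen particle by targeting subunits, activates the synthase and inactivates the phosphorylase. In gluconeogenesis, pyruvate carboxylase and phosphoenolpyruvate carboxykinase carry pyruvate past the pyruvate kinase step of glycolysis, and fructose-1,6-bisphosphatase bypasses phosphofructokinase. Several of these genes are classical targets of insulin, glucagon and glucocorticoids, and in normal liver their messages can follow feeding and the clock.

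The libraries held between 17160180 and 19709164 gene reads. Clock itself had 1333, 1336, 1409 and 1447 reads at CT22, CT28, CT34 and CT40. Splice junction reads that skipped its exon 19, the exon that the mutation removes, numbered 28, 31, 44 and 48, against 0, 1, 0 and 0 into that exon, so all 4 libraries matched the mutant label. The summed level of 8 hepatocyte markers was between 50301 and 60034 RPKM, while skeletal muscle markers summed to between 0.207 and 0.461 RPKM, with Myh4 at 0. Red cell markers (4 of 5 found) summed to 347, 254, 531 and 126 RPKM, 8 endothelial markers to 17.99, 20.84, 36.02 and 27.04 RPKM, and 8 Kupffer cell markers to between 101.4 and 121.1 RPKM. The CT22 library had the highest share of intron reads, 25.88 per 100 gene reads against 18.6 to 21.25 in the others. Coverage of the 5' over the 3' part of a transcript rose with sampling time. Its median log2 ratio over 5450 long transcripts was 0.30, 0.52, 0.73 and 0.83 at CT22, CT28, CT34 and CT40. In bulk tissue, fewer cells of a type and less RNA per cell cannot be told apart.

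Levels were first set side by side per length of transcript, in RPKM (reads relative to transcript length and library depth). Pck1 had the highest mean level over the 4 times, 464 RPKM, followed by Fbp1 with 247, Pygl with 87.7, Pcx with 78.7, Ppp1r3b with 50.95, Pklr with 50.8, Slc2a2 with 38.6, Gys2 with 27.8 and Ppp1r3c with 18.5 RPKM. Only 3 steps in this order were clean, in that the lowest time of one gene lay above the highest time of the next: Pck1 above Fbp1, Fbp1 above Pygl, and Slc2a2 above Gys2. The rest of the neighbours overlapped over the 4 times. Within a gene, times were compared on scaled reads, the reads of its transcript divided by the relative library size. With 1 library per time there is no replicate check and no test. The intervals beside ratios are exact 95% intervals for counting error, and they do not cover differences between animals or libraries.

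The genes of the 2 protein phosphatase 1 targeting subunits, Ppp1r3c and Ppp1r3b, had the widest ranges over the 4 times. Highest over lowest was at least 2-fold for 4 of the 9 genes, Ppp1r3c, Ppp1r3b, Pcx and Pck1, where 12.9% of all 9125 genes reached that range. The median log2 range was 0.80 over the 9 genes and 0.53 over all genes. Without the CT22 library 3 of the 9 genes kept a 2-fold range over the other 3 times, against 3.36% of all genes, and Pcx, with 1.486-fold, was the gene lost. Without CT28, CT34 or CT40 the count was 3 each, against 11.9%, 10.4% and 8.07% of all genes, and the gene lost was Pck1, Pck1 and Ppp1r3b. In the 5' part alone 4 of 8 genes had such a range, with Pygl and without Ppp1r3c, which was not measured there, against 25.3% of all genes. In the 3' part alone, which for Ppp1r3b and Ppp1r3c is nearly the whole transcript, it was 3 of 9, without Pcx, against 15.9%, and with the GC and length trends of the libraries removed 3 of 9, again without Pcx, against 8.25%. Ppp1r3c and Pck1 peaked at CT34, Ppp1r3b at CT28 and Pcx at CT40, so these genes did not all share a time of highest level. CT22 gave the highest level of 1 of the 9 genes, CT28 that of 2, CT34 that of 3 and CT40 that of 3, against 33.4%, 16.4%, 20.9% and 29.3% of all genes. CT22 gave the lowest level of 4 genes, CT28 that of 2, CT34 that of 2 and CT40 that of 1, against 40.6%, 15.2%, 19.1% and 25.1%.

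**Figure D1:**
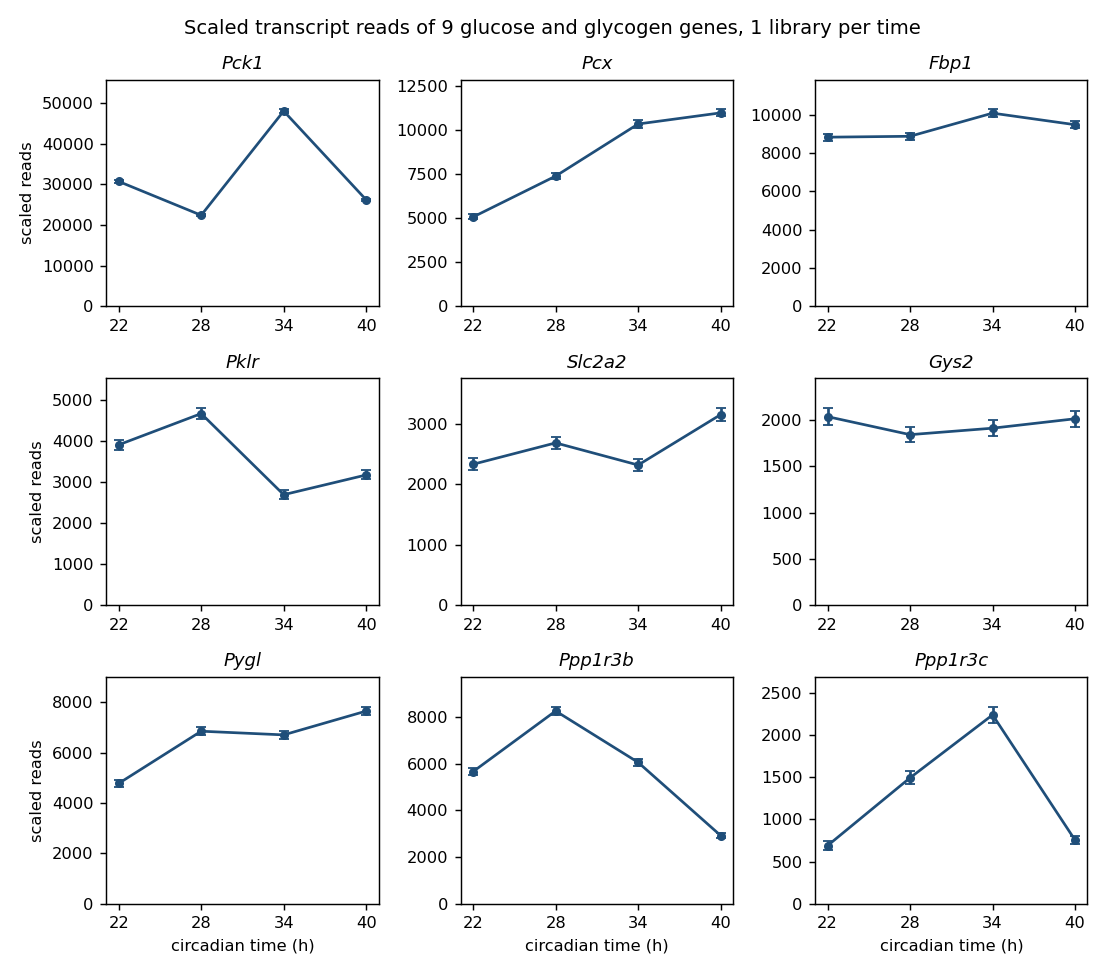
Scaled transcript reads (vertical axes, each from 0) of the 9 genes against circadian time in hours, with 1 library per time; error bars are exact 95% Poisson intervals for counting error. Ppp1r3c peaks at CT34 with 2240 scaled reads and Ppp1r3b at CT28 with 8263, while Gys2 stays between 1844 and 2039.

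Ppp1r3c encodes a targeting subunit of protein phosphatase 1, also called PTG, that binds glycogen and raises glycogen synthesis. Its transcript NM_016854 lies on the minus strand at chr19:36806221-36811094 of mm9. It had 662, 1516, 2193 and 790 reads at CT22, CT28, CT34 and CT40, which are 690, 1494, 2240 and 755 scaled reads. The level was thus low at CT22 and CT40 and high at CT34, with CT28 between. CT34 was 3.25-fold above CT22 (2.975 to 3.547), a range wider than that of 98.4% of all genes. CT28 was 1.979-fold above CT40, just under the 2-fold line. Nearly all exon reads fell in exon 2, which holds 2624 bases and gave the same ratio of CT34 over CT22, 3.24. The single junction of the transcript had 9, 19, 34 and 18 reads, again highest at CT34. On these few reads CT28 was near CT40, with a log2 ratio of 0.127 against 0.985 for the transcript. Its introns held only 22, 23, 23 and 5 reads, too few to follow over time.

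The 250 bases before the Ppp1r3c start are shown because they hold a palindromic E-box, CACGTG, the element bound by CLOCK with its partner BMAL1. The sequence is from RefSeq at chr19:36736605-36736854 of GRCm38.p6, minus strand, with the E-box in capitals at positions -104 to -99 from the start, where -1 is the last base before it.
Ppp1r3c: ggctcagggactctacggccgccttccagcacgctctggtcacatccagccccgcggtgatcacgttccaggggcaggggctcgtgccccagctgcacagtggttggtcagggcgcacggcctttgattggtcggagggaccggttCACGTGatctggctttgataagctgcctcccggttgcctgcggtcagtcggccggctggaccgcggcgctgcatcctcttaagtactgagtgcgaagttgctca
An E-box stands in 6.02% of 32851 mouse promoter windows of this length. The match is a description of these letters only, and binding was not measured here.

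Ppp1r3b encodes the hepatic targeting subunit, known as GL, which brings the phosphatase to glycogen and is inhibited by active phosphorylase. Its transcript NM_177741 spans chr8:36438795-36451191 of mm9, plus strand. It had 5666, 8263, 6061 and 2925 scaled reads at CT22, CT28, CT34 and CT40, so the gene was highest at CT28 and lowest at CT40. CT28 exceeded CT40 2.825-fold (2.71 to 2.945), and 96.9% of all genes had a narrower range. At the other 2 times, CT22 and CT34, the levels were close, with a ratio of 0.935. The intron of Ppp1r3b, as counted for this transcript, followed the message. It also covers the exon of a UCSC transcript and an unlisted donor site, both described below, so its reads can include exon reads of those forms. It held 1419, 1954, 1425 and 724 reads, and its CT28 level was 2.783-fold above CT40 (2.554 to 3.035) on the same scale. Without CT40 the range of the transcript over the other 3 times was 1.458-fold.

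Exon 2 of Ppp1r3b, with 4154 bases, carried this pattern, and the short exon 1 did not. Exon 1, of 65 bases, had 214, 527, 555 and 305 reads, highest at CT34. Junction reads reached exon 2 from 3 upstream donor sites. The RefSeq exon 1 gave 27, 54, 79 and 56 junction reads, a donor at position 36438995 that belongs to no deposited transcript gave 39, 76, 68 and 44, and the exon of a UCSC transcript at chr8:36439733-36439807 gave 88, 92, 103 and 77. Over the 4 libraries the UCSC exon supplied 44.83% of 803 such reads (41.35 to 48.35, exact Clopper-Pearson). Its share was 57.14% at CT22 and between 41.2 and 43.5% later. The RefSeq exon supplied 17.53% at CT22 and 31.6% at CT34. None of the 3 sources alone had the CT28 over CT40 ratio of exon 2. Together they had 154, 222, 250 and 177 reads and a CT28 over CT40 ratio of 1.293 (1.057 to 1.585), well below the 2.825 of the transcript, and they were highest at CT34. The CT28 peak of Ppp1r3b was thus a measurement of exon 2 and the intron and was not seen at this size in spliced reads.

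**Figure D2:**
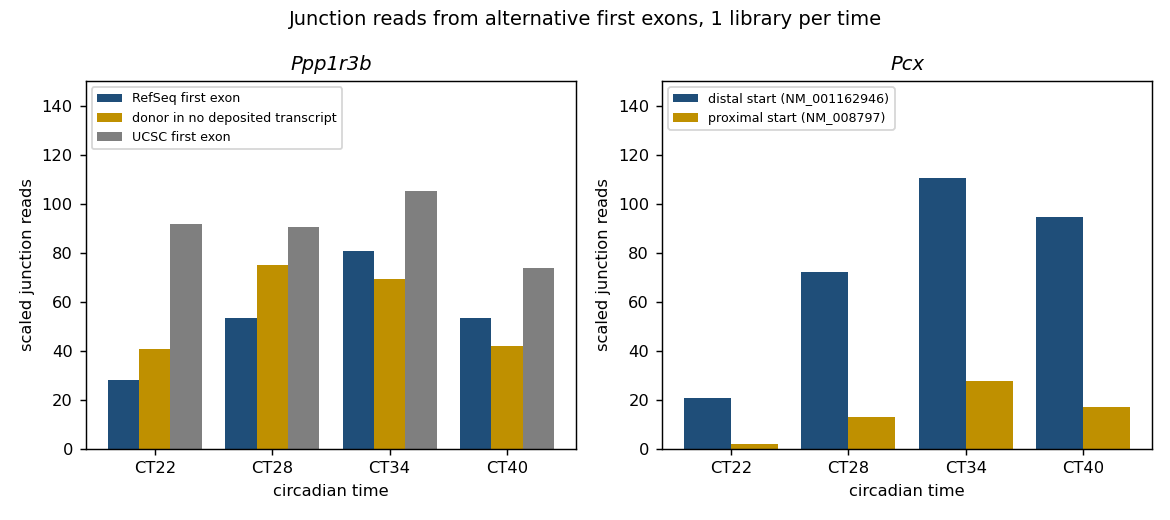
Scaled reads of the junctions into the shared exon (vertical axis) from alternative first exons of Ppp1r3b (left) and Pcx (right) in each of the 4 libraries. The UCSC exon leads for Ppp1r3b at all 4 times, and the distal start leads for Pcx at all 4 times, with 99 against 18 unscaled reads into the shared exon at CT40.

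Gys2, the liver isoform of glycogen synthase, was among the flattest of all genes. Its transcript NM_145572 (mm9 chr6:142371133-142421629, minus strand) had 2039, 1844, 1914 and 2016 scaled reads, a range of 1.106-fold (1.038 to 1.179). Only 2.93% of all genes had a narrower range. Its introns held 266, 269, 257 and 350 reads, with CT40 the highest. Coverage along Gys2 was tilted to the 3' end in every library, and its 17 exons went from a CT40 over CT22 ratio of 1.735 in exon 1 to 0.695 in exon 17.

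Pygl, the liver glycogen phosphorylase, had its lowest transcript level at CT22. Its transcript NM_133198 (mm9 chr12:71291802-71328670, minus strand) had 4779, 6852, 6706 and 7652 scaled reads, and CT40 exceeded CT22 1.60-fold (1.544 to 1.661). The later 3 libraries lay within 1.141-fold of each other. The difference sat in the 5' part, where CT40 was 2.141-fold above CT22, while the 3' part had a ratio of 1.09. Intron reads ran the other way. The scaled introns were highest at CT22, and the unscaled reads numbered 1566, 1360, 866 and 895. Per 100 transcript reads this was 34.15 at CT22 and 11.18 at CT40. All introns together were also highest at CT22 in these libraries: the median gene of 7257 had a log2 ratio of CT22 over CT34 of 0.51 in its introns. Scaled by total intron reads, this median was 0.11. The Pygl introns were then 1401, 1306, 1005 and 914, still highest at CT22. The part of the general shift in the Pygl introns was not tested.

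Pck1 encodes the cytosolic phosphoenolpyruvate carboxykinase, the step that commits oxaloacetate to glucose. Its transcript NM_011044 spans chr2:172978574-172984754 of mm9, plus strand. It had 30716, 22398, 48034 and 26189 scaled reads at CT22, CT28, CT34 and CT40. A single time, CT34, stood above the rest, and CT34 over CT28 was 2.145-fold (2.111 to 2.179), wider than the range of 90.5% of genes. Without CT34 the other 3 times lay within 1.371-fold, and without CT28 within 1.834-fold. The 3' part gave 2.043 and the 5' part 2.438 for the same ratio, and each of the 10 exons was higher at CT34 than at CT28, by 1.952-fold in exon 10 to 3.255-fold in exon 1. Its introns were highest at CT34 as well, with 2775, 3150, 4383 and 2896 reads and a CT34 over CT28 ratio of 1.442 (1.377 to 1.51), smaller than that of the message. Among marker lists, the hepatocyte, endothelial and red cell sums and the very low skeletal muscle sum were also highest at CT34. The Kupffer and stellate cell sums were highest at CT22, the cholangiocyte sum at CT28 and the pancreas sum at CT40. The part of these cell types in the Pck1 result was not tested.

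The promoter of Pck1 is shown because its cyclic AMP response element is a textbook example of hormone control. The 250 bases before the start are from RefSeq at chr2:173152823-173153072 of GRCm38.p6, plus strand, with the variant element TTACGTCA in capitals at positions -93 to -86.
Pck1: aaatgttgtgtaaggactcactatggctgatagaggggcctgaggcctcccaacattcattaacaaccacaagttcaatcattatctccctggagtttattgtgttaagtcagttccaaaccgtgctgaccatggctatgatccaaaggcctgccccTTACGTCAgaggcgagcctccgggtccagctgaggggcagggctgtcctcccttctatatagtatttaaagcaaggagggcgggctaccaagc
This variant, read on both strands, stands in 0.447% of the 32851 promoter windows, and the full palindrome TGACGTCA in 1.55%. The transcripts of Crtc2 and Creb1, which encode a coactivator and a factor of this element, had ranges of 1.718-fold and 1.333-fold. They were highest at CT40 and CT22.

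Pcx encodes pyruvate carboxylase, the mitochondrial enzyme that makes oxaloacetate from pyruvate. Its level over the whole transcript NM_008797 (mm9 chr19:4594319-4621752, plus strand) was 5072, 7394, 10353 and 10986 scaled reads, lowest at CT22 and highest at CT40. CT40 over CT22 was 2.166-fold (2.094 to 2.24) and CT34 over CT22 2.041-fold. This range was unequal along the gene. Exons 2 to 12 were between 2.747-fold and 4.665-fold higher at CT40 than at CT22, and exon 16 was 1.753-fold higher. Exons 17, 18, 19 and 20 had ratios of 0.992, 0.934, 0.960 and 0.924. Exon 20, of 713 bases, had 1309, 1736, 1774 and 1318 reads, and did not separate CT22 from CT40 in the direction of the whole transcript. The 3' part as a whole had a range of 1.471-fold, highest at CT34.

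The tilt of Pcx was large beside that of most genes. In the 4886 genes compared, the median log2 CT40 over CT22 ratio was 0.57 in the 5' part and 0.02 in the 3' part, and the difference between the parts exceeded that of Pcx, 1.41, in 2.845% of them. For Pygl the difference was 0.97 and for Slc2a2 0.91, exceeded in 15.45% and 18.97% of genes. For Ppp1r3b it was 1.34, exceeded in 3.95%, with a 5' part of only the 65-base exon 1. For Pck1 it was 0.41, smaller than in 62.81% of genes. Introns of Pcx held 498, 536, 648 and 658 reads, a scaled range of 1.275-fold, and Lrfn4 on the opposite strand lies within one of them. Libraries differ in coverage along transcripts, as given above; how much of the Pcx range this accounts for was not tested.

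**Figure D3:**
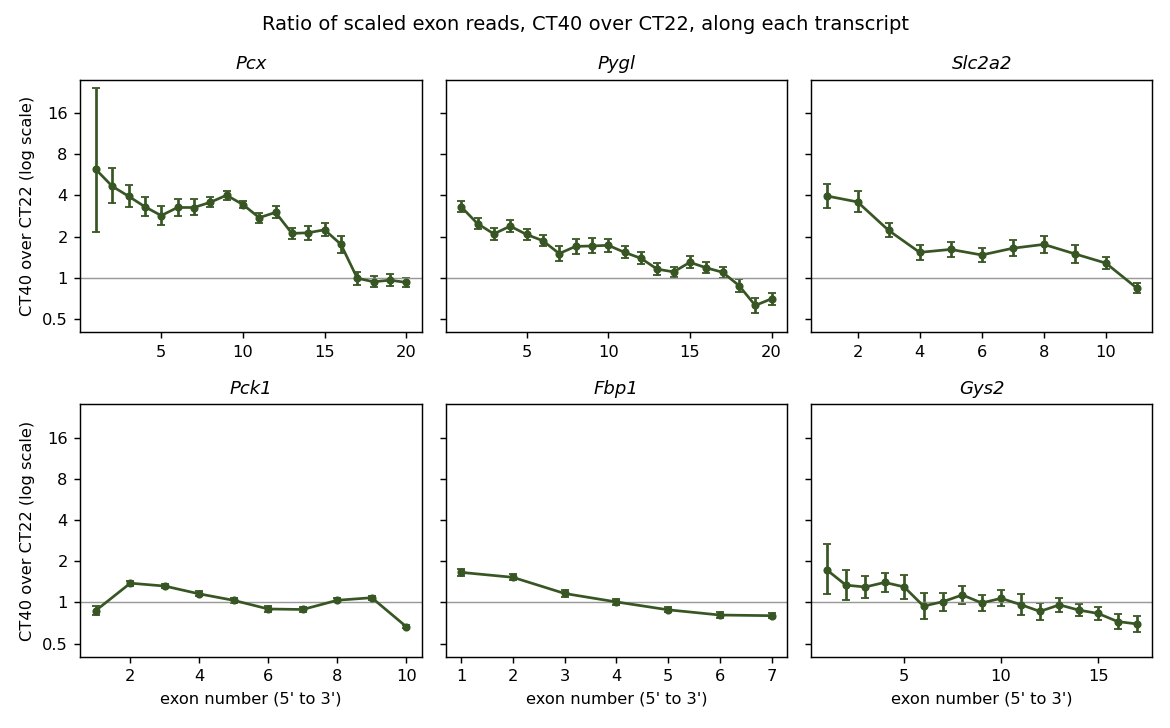
Ratio of scaled exon reads at CT40 over CT22 (vertical axis, log scale) against exon number from 5' to 3' for 6 genes, with exact 95% intervals for counting error. Pcx goes from 4.665 in exon 2 to 0.924 in exon 20, Pygl from 3.301 to 0.702, and Pck1 lies between 0.664 and 1.381 throughout.

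Pcx has a distal and a proximal start, 83847 bases apart. The junction that leaves the distal first exon of NM_001162946 had 16, 58, 104 and 90 reads. The next junction of that form, which joins the shared exon, had 20, 73, 108 and 99 reads, and that from the proximal first exon of NM_008797 had 2, 13, 27 and 18. The distal form supplied 83.33% of the 360 reads into the shared exon (79.07 to 87.03, exact Clopper-Pearson), with 80.0 to 90.91% in the 4 libraries. The distal start was thus the main one at each time, and its share at CT22 rests on 22 reads. The 250 bases before it, from RefSeq at chr19:4510222-4510471 of GRCm38.p6, plus strand, are shown with an E-box in capitals at positions -248 to -243, for comparison with those of Ppp1r3c. The window before the proximal start held none of the searched motifs.
Pcx, distal start: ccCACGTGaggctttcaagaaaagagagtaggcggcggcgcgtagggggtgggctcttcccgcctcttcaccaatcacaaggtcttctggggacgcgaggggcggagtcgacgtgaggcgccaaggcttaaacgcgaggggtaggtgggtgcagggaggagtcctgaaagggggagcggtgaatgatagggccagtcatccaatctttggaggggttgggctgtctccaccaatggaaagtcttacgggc

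Fbp1 encodes fructose-1,6-bisphosphatase, the enzyme that removes the phosphate at position 1 of the sugar in gluconeogenesis. Its transcript NM_019395 (mm9 chr13:62966113-62989596, minus strand) had 8833, 8880, 10089 and 9484 scaled reads, a range of 1.142-fold (1.109 to 1.176) that 6.08% of genes undercut. The near-constant level held while its introns differed. Intron reads numbered 2523, 2060, 1979 and 1322, so CT22 was 2.081-fold above CT40 after scaling. Scaled by total intron reads instead, the introns were highest at CT34, with 2257, 1979, 2296 and 1350, and CT40 was again the lowest. Fbp1 exons also tilted, with CT40 over CT22 at 1.656 in exon 1 and 0.799 in exon 7.

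Pklr, the pyruvate kinase of liver and red cells, was highest at CT28 and lowest at CT34. Its liver transcript NM_001099779 (mm9 chr3:88940545-88950516, plus strand) had 3903, 4664, 2688 and 3169 scaled reads, and CT28 over CT34 was 1.735-fold (1.654 to 1.82). Over the whole transcript CT22 and CT28 were the higher libraries, but in the 5' part CT22 was the lowest, with 2034, 2838, 2408 and 2712 scaled reads, and by junction reads CT22 was below CT40. The difference sat in the 3' part of the gene, with 1.859-fold there and 1.178-fold in the 5' part. Exon 11 alone, with 1128 bases, had 3105, 3640, 1757 and 2247 reads, while exons 2 and 3 were at CT28 over CT34 ratios of 0.989 and 0.983. A transcript on the opposite strand overlaps 521 exon bases of Pklr, or 19.58%, and the library does not mark strand, so reads there cannot be assigned.

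The gene has 2 known starts, 481 bases apart, of which the upstream one serves red cells. Of 82 junction reads into the shared exon, 0 came from the red cell first exon, which allows a share of up to 3.659% at 3 reads of the total (exact Clopper-Pearson upper bound 4.399%). Single libraries are thinner, and the 8 reads at CT22 allow up to 37.5%. That exon had 0, 1, 0 and 0 reads, while the 15-base liver first exon had 36, 106, 78 and 81, although red cell markers were present in every library. Most junction reads, 67 of 82, came from a donor at position 88940540, the end of the first exon of a Vega transcript that starts just upstream of the liver form. The 250 bases before each start are set side by side because only one of these starts had junction reads nearby. They are from RefSeq, GRCm38.p6, plus strand, at chr3:89136373-89136622 for the liver start and chr3:89135892-89136141 for the red cell start. Capitals mark the paired E-box of the carbohydrate response element at positions -170 to -154 of the former, and a nuclear receptor half-site, AGGTCA on the other strand, in the latter.
Pklr, liver start: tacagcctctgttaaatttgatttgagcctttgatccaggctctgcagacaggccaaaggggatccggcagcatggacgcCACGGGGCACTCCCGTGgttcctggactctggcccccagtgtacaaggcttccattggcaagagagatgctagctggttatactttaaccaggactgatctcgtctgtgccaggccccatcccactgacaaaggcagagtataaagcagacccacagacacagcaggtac
Pklr, red cell start: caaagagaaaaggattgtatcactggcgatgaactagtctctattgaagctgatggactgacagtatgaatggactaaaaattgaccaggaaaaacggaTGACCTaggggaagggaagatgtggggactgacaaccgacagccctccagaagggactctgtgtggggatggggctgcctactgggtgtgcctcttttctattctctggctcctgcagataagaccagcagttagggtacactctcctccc
The paired E-box pattern stands in 0.387% of promoter windows and the half-site in 14% of them. Mlxipl, which encodes the factor ChREBP that binds carbohydrate response elements, had 9543, 16066, 12172 and 13780 scaled reads. It was highest at CT28 like Pklr, as were 16.4% of all genes, but lowest at CT22 where Pklr was lowest at CT34. Mlx, its partner, was highest at CT22.

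Slc2a2 encodes GLUT2, the transporter through which glucose enters and leaves hepatocytes. Its transcript NM_031197 (mm9 chr3:28596825-28627282, plus strand) had 2327, 2680, 2314 and 3147 scaled reads, a range of 1.36-fold (1.289 to 1.435) with CT40 highest. Its introns were highest at CT40 too. The ends of the transcript differed in their order of times. Exon 1 had 125, 665, 448 and 540 reads, low at CT22 alone, and exon 11 had 1181, 869, 671 and 1080 reads, high at CT22 and CT40. In the 5' part CT40 was 1.878-fold above CT22, while the 3' part had a ratio of 0.999.

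**Figure D4:**
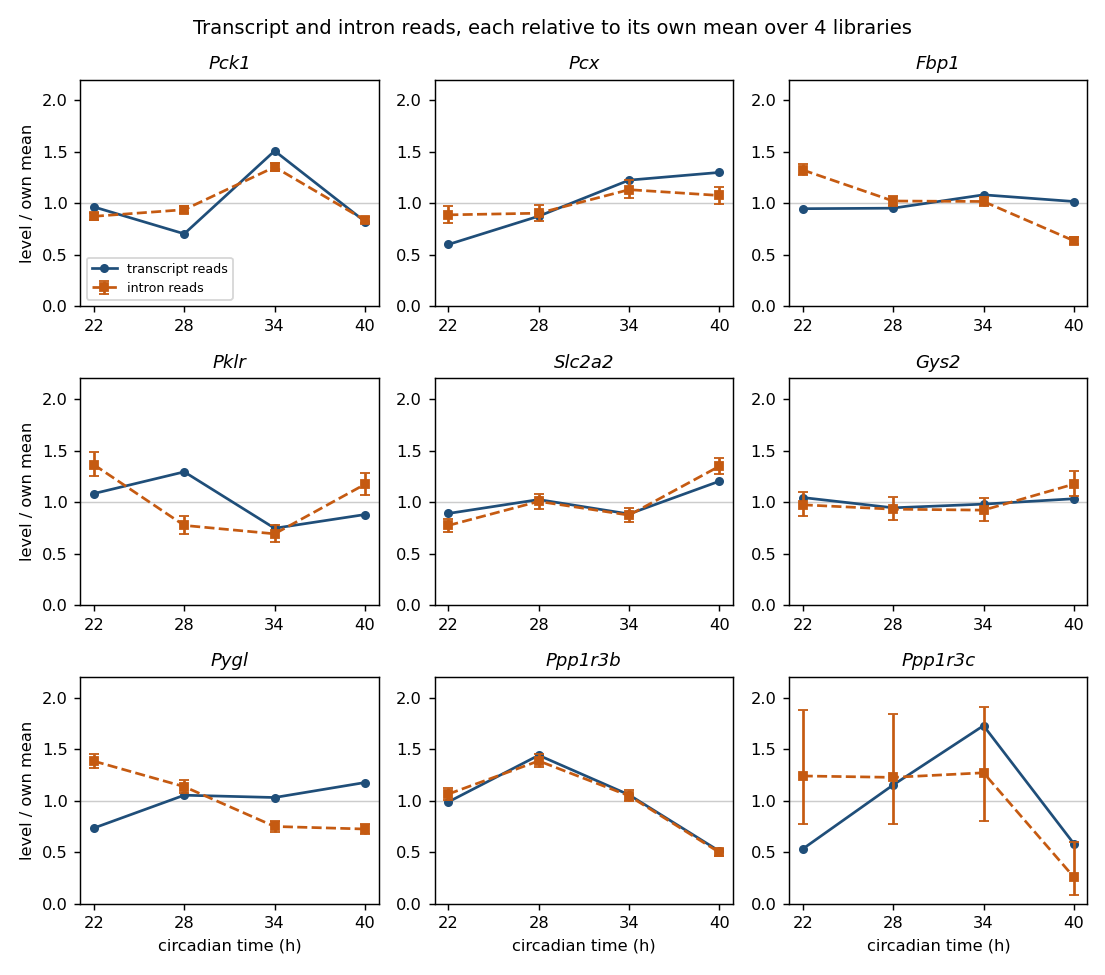
Scaled transcript reads (solid, circles) and scaled intron reads (dashed, squares) of the 9 genes, each divided by its own mean over 4 libraries, against circadian time in hours; bars on intron points are exact 95% Poisson intervals. Ppp1r3b introns track the transcript (2.783 and 2.825-fold from CT40 to CT28), and Pygl introns are highest at CT22 where the transcript is lowest. Fbp1 introns are also highest at CT22 as drawn, but at CT34 when scaled by total intron reads. The Fbp1 transcript is nearly level between CT22 and CT28, with 8833 and 8880 scaled reads.

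Of the 8 genes with a mean of at least 50 intron reads, all but Ppp1r3c, transcript and introns were highest at the same time in 3, and in 4 when intron reads were scaled by their own total. Over all 7257 such genes the shares were 43% and 46%. The 3 were Pck1, Slc2a2 and Ppp1r3b.

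The 2 pairs of times 12 h apart were then compared. Between CT22 and CT34, 0 of the 9 genes were at least 2-fold higher at CT22, against 3.07% of all genes, and 2, Ppp1r3c and Pcx, were at least 2-fold lower, against 4.04%. Between CT28 and CT40, 1 gene, Ppp1r3b, was at least 2-fold higher at CT28, against 1.21%, and 0 were lower, against 1.1%. The median log2 ratio was -0.19 for CT22 over CT34 in the 9 genes and -0.05 in all genes, and -0.13 and -0.01 for CT28 over CT40. The call of Pcx at CT22 ended when total gene reads, the 3' part alone or a fit without GC and length trends was used, as its log2 ratio went from -1.03 to -0.96, -0.56 and -0.53.

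**Figure D5:**
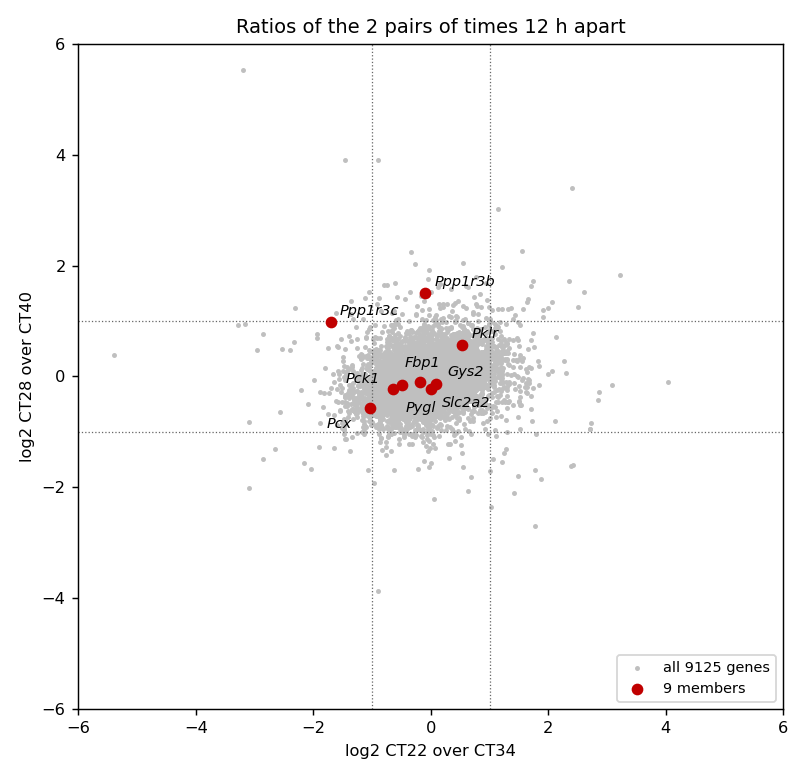
Log2 ratio of scaled reads at CT28 over CT40 (vertical axis) against CT22 over CT34 (horizontal axis) for all 9125 genes (grey) and the 9 genes named (red); dotted lines mark 2-fold. Ppp1r3c lies at -1.70 on the horizontal axis, Ppp1r3b at 1.498 on the vertical axis, and Fbp1, Gys2 and Slc2a2 lie near the centre.

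The wider pathways were counted in 5 lists, in which the 9 genes are included. In the gluconeogenesis list, 15 of 17 genes were measured and 2, Pck1 and Pcx, had a 2-fold range, near the 12.9% of all genes. G6pc, which encodes the catalytic subunit that releases free glucose, came closest of the others, with 4791, 5427, 6750 and 3476 scaled reads and 1.942-fold (1.865 to 2.023), and like Pck1 it was highest at CT34. Of the 15 genes, 6 were highest at CT34, against 20.9% of all genes. In the glycolysis list, 18 of 24 were measured and 2, both outside the 9 genes, had a 2-fold range, again near the 12.9% of all genes. Pfkfb3, a kinase that makes the phosphofructokinase activator, had 409, 156, 138 and 123 scaled reads, high at CT22 alone. Gapdh is uncertain, because its upper deposited value was 227-fold the lower one, which leaves few uniquely placed reads.

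In the glycogen list 19 of 32 genes were measured, and 4 had a 2-fold range: Ppp1r3b, Ppp1r3c, Gaa and Ugp2, against 12.9% of all genes. Gaa, the lysosomal glucosidase that degrades glycogen, had 1482, 3047, 3884 and 3722 scaled reads, low at CT22 alone, and its range of 2.621-fold was 2.084-fold in the 3' part. Ugp2, which makes UDP-glucose for glycogen synthase, had 3776, 2223, 1774 and 1929, high at CT22 alone. The other targeting subunits were lower: Ppp1r3a had 0 reads in all 4 libraries, and Ppp1r3d, Ppp1r3e, Ppp1r3f and Ppp1r3g each had a mean under 100 reads. The catalytic subunit genes Ppp1ca and Ppp1cb ranged 1.456-fold and 1.484-fold, both highest at CT22. Among the glycogen genes measured, 8 were highest at CT22, against 33.4% of all genes.

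Of 21 genes of glucose and pyruvate transport and pyruvate oxidation, 15 were measured and 3 had a 2-fold range: Pdk4, Pdk2 and Mpc1, against 12.9% of all genes. Pdk4 and Pdk2 encode kinases that switch off pyruvate dehydrogenase. Pdk4 had 95.86, 157.7, 235.9 and 226.5 scaled reads and Pdk2 had 2826, 5382, 4820 and 6469, both lowest at CT22. In the 3' part these ranges were 1.705-fold and 1.625-fold. Mpc1, a subunit of the pyruvate carrier, had 4.375 times as much in its upper as in its lower deposited value, and its 2.042-fold range is therefore uncertain.

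All 22 regulators were measured, and 6 had a 2-fold range, against 12.9% of all genes. Cebpb, a factor induced by glucagon and inflammation, had 137.5, 680.9, 1175 and 1203 scaled reads. It was lowest at CT22, with CT28 between CT22 and the later times. Irs2, an insulin receptor substrate that fasting raises, had 161.5, 341.9, 1176 and 957.6, with CT22 and CT28 low. Onecut1, a liver transcription factor, had 1917, 2627, 571.9 and 797.0, with CT22 and CT28 high. Foxo3 ranged 2.799-fold, from 263.6 at CT22 to 737.8 at CT40. Of these 22 genes 14 were lowest at CT22, where 40.6% of all genes were. The CT22 library also had the highest intron share and the lowest ratio of 5' over 3' coverage. The part of coverage in this count was not tested. Between the highest and lowest times of each gene, the 3' part gave 8.675 for Irs2, 3.892 for Onecut1 and 2.803 for Foxo3. For Cebpb it gave the value of the whole transcript and is no separate check.

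Genes with the most similar course were found by the distance between log2 levels, each centred on its own mean, over the 4 libraries and among 1179 other genes with a 2-fold range. With 4 points many genes can lie close, and the distances are a description only. Nearest to Ppp1r3c was Tubb2a, a tubulin gene, at 0.13, with 1122, 2466, 3421 and 1113 scaled reads, followed by P4ha2 and Hapln4. Nearest to Ppp1r3b were Orm2 and the clock-controlled repressor gene Bhlhe40, at 0.20 and 0.21, and then Samd1; Bhlhe40 had 1704, 2864, 1922 and 1054. Nearest to Pck1 were Cd163 at 0.14, a macrophage receptor gene with 180.3, 116.3, 259.4 and 149.1, then Adgrl4 and Cyp3a44. Nearest to Pcx was Klhl21 at 0.037, with 225.1, 326.2, 460.6 and 473.1, then Nhsl1 and Ddb1.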

How the data were processed

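Polyadenylated liver RNA of 4 pools was sequenced from an unstranded paired-end library, per the labels' protocols, and the submitters' processing notes name build mm9. RUM found the junctions, per the file headers, in a version not given in the sources used here. For each transcript, exon and intron the authors gave a lower and an upper value with no stated unit, recorded here as a score. Multiplied by length, 99.996 to 100.0% of the lower transcript values up to 1000 reads came out as whole reads, with a tolerance of 0.05 read above rounding, as RPKM would, and they were turned into reads (intron values: 99.284 to 99.459%). That the lower value holds uniquely placed reads is inferred. Junction values are deposited read counts. The exon reads were counted per exon, so a fragment over several exons adds to each.

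Of 115699 transcripts, 25898 got a symbol from RefSeq and 53811 from Vega alone, and 35990 without one were left out. Reads were scaled by TMM (edgeR 4.0.16) with Python 3.11.15; counts under 3 were set to 3. Exons were placed in the 5' or 3' part by their centre. No replicates exist, so no p-value was computed, and the ratio script was tested on simulated data. Promoter windows cover 250 bases before the RefSeq start (GRCm38.p6, no entry for Gys2 and Ppp1r3b). The 50 bases after the start were not searched.

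The 9 genes and the lists were chosen with earlier results of these data known. Besides the 9, up to 4 measured genes per list with the widest range of at least 2-fold (or the widest) and the 3 nearest genes of each member with such a range were named. Genes named outside that rule (Crtc2, Creb1, Mlxipl, Mlx, Gapdh, the other Ppp1r3 genes, Ppp1ca, Ppp1cb and the Clock check) were chosen after their values were seen. A gene that the rule names is not reported here. Alternatives were total gene reads, DESeq2 1.42.0 size factors, unscaled values, the upper value, the longest transcript, either part alone, GC and length trends removed, junction reads, a pseudocount of 0.1 without a filter, 1.5-fold, and each library left out. The upper value was also scaled as the lower value, which was not planned.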

Additional observations from a re-analysis of the deposited data

Results flagged for a closer look

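Splice junctions that belong to no deposited transcript were seen above 3 reads in every library in 2 of the 9 genes. In Fbp1 a junction across positions 62966528 to 62970341 of chr13 (mm9), which leaves out exon 6, had 17, 18, 21 and 21 reads at CT22, CT28, CT34 and CT40, 77 in all. The junction of the full form from exon 6 to exon 7 had 1451, 1572, 1513 and 1500. In Ppp1r3b a junction across positions 36438996 to 36447037 of chr8 joined exon 2 to an unlisted donor with 227 reads in all, more than the 216 from the RefSeq first exon.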

How the results depend on the processing

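No paired analysis was possible because each time has 1 library and the replicate numbers pair nothing. The number of genes with a 2-fold range was 4 under the other scalings, the upper value, the longest transcript, junction reads and the 5' part (of 8 genes, with Pygl and without Ppp1r3c), 3 in the 3' part alone and with the GC and length trends removed, 3 without each library in turn, and 6 at 1.5-fold. Of all genes, 12.8%, 12.9% and 15.9% had a 2-fold range with total gene reads, DESeq2 size factors and unscaled values. The shares were 13% with the upper value, 12.9% with the longest transcript and 19.3% of 6457 genes by junction reads. By junction reads Ppp1r3b and Ppp1r3c rest on 1 junction each, with 27 to 79 and 9 to 34 reads per library. At 1.5-fold the share was 43.8%, and the other shares are given with the ranges above. The genes 2-fold lower at CT22 than at CT34, 2 in number, were 1 with total gene reads, 1 in the 3' part alone and 1 with the trends removed; Pcx is the gene that left. The 1 gene 2-fold higher at CT28 than at CT40 was 0 in the 5' part alone and 0 by junction reads, and 2 at 1.5-fold. For the pairs of times, shares over all genes were not computed under the alternatives. The log2 CT28 over CT40 ratio of Ppp1r3b was -0.003375 by junction reads, which rest on the single RefSeq junction, against 1.498, and all 3 junctions into exon 2 together gave 1.293-fold against 2.825-fold. The gluconeogenesis list had 1 gene with a 2-fold range in the 3' part alone, an alternative chosen after seeing the data, in place of 2. Between the same highest and lowest times, and with all 4 libraries, at least 2-fold was reached by Ppp1r3c in 10 of 10 alternatives, Pck1 in 11 of 11, Ppp1r3b in 9 of 11 and Pcx in 9 of 11. Not all of these are separate checks. The longest transcript left each of the 4 ranges unchanged, and the 3' part of Ppp1r3b and Ppp1r3c is nearly the whole transcript. In the 5' part and by junction reads Ppp1r3b ranged 2.542-fold and 2.472-fold between CT34 and CT22 instead. Protein comparisons were not run. Depth gives intervals of a few percent for most genes and leaves the introns of Ppp1r3c and the first-exon junctions of Pklr and Ppp1r3b thin.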

Other observations

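The junction from the first to the second exon of Slc2a2 stood apart from the rest of its transcript, a comparison made after its exon values had been seen. It had 93, 601, 388 and 455 reads at CT22, CT28, CT34 and CT40, while its other junctions together had 1147, 1578, 1390 and 2045. After scaling, CT28 over CT22 was 5.278-fold for the former and 1.124-fold for the latter, a ratio of 4.697. Among 1631 genes compared in the same way, 4 had a larger ratio, and the median was 1.059. The shift was not confined to the first junction, and the next one had 53, 190, 98 and 124 reads. By exon, CT28 over CT22 fell from 5.031 in exon 1 to 4.359, 2.473 and 1.124 in exons 2, 3 and 4.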
